A study of Homo sapiens with 12 samples.

Results

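The annexins are a family of calcium-dependent, phospholipid-binding proteins, and 10 of them were followed here across 4 groups of libraries: ANXA1, ANXA2, ANXA3, ANXA4, ANXA5, ANXA6, ANXA7, ANXA10, ANXA11 and ANXA13. They were chosen by symbol, with their levels in these same libraries in view, and make up 10 of the 23583 rows of the gene count table. The table holds 14 rows whose symbol starts with ANXA, and the other 4 (ANXA8, ANXA8L1, ANXA9 and ANXA2R) are described only briefly. Because the choice was made with the values known, the tests below are read gene by gene. Counts over the family are printed beside the same counts over all genes, and nothing about the family is read from them.

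Expression was measured by RNA sequencing in 2 established human hepatocellular carcinoma cell lines, Huh7, which is known for retaining features of hepatocytes, and HCCLM3, which is known for metastatic growth in mice. The 4 groups were Huh7 given an siRNA against the circular RNA circASH2 (si-circASH2), Huh7 given the negative control siRNA (si-NC), HCCLM3 given si-circASH2 and HCCLM3 given si-NC, with 3 libraries each. All groups therefore carry an siRNA, each line is 1 cell line, and the labels do not name separate cultures behind the 3 libraries of each group. P-values therefore measure library to library spread alone, and that spread may be technical. The study set out to follow what silencing of circASH2 changes in metastasis of liver cancer. Gene counts do not separate a circular RNA from its host gene, so the strength of the knockdown is not given here.

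Annexins share a core of repeated domains that binds acidic membrane lipids when calcium rises, and differ in their N-terminal tails, which bind partner proteins such as S100 proteins. They act in exocytosis and endocytosis, in the repair of torn plasma membranes and, outside the cell, in the generation of plasmin and the damping of inflammation. In liver, ANXA6 is known from normal hepatocytes, while ANXA1, ANXA2 and ANXA3 are better known from injured or malignant liver.

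Library totals lay between 29006781 and 30858895 counts, so that 3 counts were worth 0.0981 to 0.105 CPM (counts scaled to library size) in a library. Marker calls given here are by the edgeR test used for the annexins below (adjusted p under 0.05). By it 16.3% of all genes tested passed as higher in Huh7 and 15.1% as lower. In HCCLM3 15.1% passed as higher and 15.5% as lower. Hepatocyte markers (9 genes) separated the lines. Their summed level was 27800 to 28460 CPM in Huh7 si-circASH2 and 30450 to 30610 CPM in Huh7 si-NC, against 108 to 111 CPM in HCCLM3 si-circASH2 and 103 to 112 CPM in HCCLM3 si-NC. In HCCLM3 si-NC 4 of the 9 were under 1 CPM, albumin averaged 3.24 CPM and HNF4A, a hepatocyte transcription factor, 94.9 CPM, so HCCLM3 carries few of the defining hepatocyte transcripts. Most of the HCCLM3 sum was HNF4A. With the knockdown, APOA2 and TTR passed as higher in Huh7, and AFP, APOA1 and HNF4A as lower. In HCCLM3 AFP and APOA2 passed as higher and 0 of the 9 as lower. APOA2 averaged 4.77 ± 0.55 CPM in HCCLM3 si-circASH2 against 0.38 ± 0.11 CPM in HCCLM3 si-NC. Summed fibroblast markers were higher with the knockdown, mostly through a different gene in each line. The sum of 7 was 59.9 to 61.1 CPM in Huh7 si-circASH2 and 37.9 to 43.3 CPM in Huh7 si-NC. Most of it was COL1A2 (38.9 ± 0.65 and 24.45 ± 2.65 CPM). In Huh7 4 of 7 passed the test as higher (COL1A2, COL3A1, LUM and PDGFRB), and DCN was at 0 in both groups. LUM averaged 5.60 ± 0.50 CPM in Huh7 si-circASH2 against 2.80 ± 0.47 CPM in Huh7 si-NC. In HCCLM3 the sum was 49.5 to 53.9 CPM with si-circASH2 and 36.0 to 38.4 CPM with si-NC. Nearly all of that was LUM (48.4 ± 1.80 and 34.3 ± 1.64 CPM). There 1 of 7, LUM, passed as higher, as it did in Huh7, and COL1A2 and PDGFRB were at 0 in si-NC. COL1A1 and PDGFRA did not pass in either line. Of 6 leukocyte markers the sum was 337 to 365 CPM in Huh7 si-circASH2 against 383 to 419 CPM in Huh7 si-NC. Most of it was LYZ (312 ± 12.6 against 375 ± 19.4 CPM), while CD68 went the other way (38.6 ± 1.98 against 20.7 ± 0.46 CPM). In HCCLM3 the leukocyte sum was 171 to 208 CPM with si-circASH2 against 143 to 165 CPM with si-NC. Nearly all of that was CD68 (187 ± 18.4 against 154 ± 10.9 CPM), and CD3E was at 0 in all groups. CD68 passed as higher in both lines, and LYZ as lower in Huh7. Of 5 endothelial markers the sum was 23.7 to 24.4 against 24.1 to 27.5 CPM in Huh7 (si-circASH2 against si-NC), nearly all of it PECAM1. In HCCLM3 it was 19.97 to 22.1 against 26.1 to 27.9 CPM in the same order, nearly all of it PECAM1 and KDR. Both passed as lower in HCCLM3, and no endothelial marker passed in Huh7. Of 4 biliary markers the sum was 301 to 311 against 284 to 291 CPM in Huh7, where KRT19 passed as higher and SOX9 as lower. In HCCLM3 it was 12.9 to 14.1 against 11.4 to 12.6 CPM in the same order, with SOX9 passing as higher. The part of any of these in the annexin results was not tested.

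The promoters of the members whose levels set the lines apart are shown first, because they are of different kinds. Each window runs from 250 bases before to 50 after the annotated start (RefSeq, GRCh38.p14), 5′ to 3′ on the strand of the gene. Capitals mark matches, on either strand, to any of 7 motifs, and positions count from the start. The letters searched for the TATA box were TATAAA. The letters of the GC box were GGGCGG, and CCAAT was searched as written. The site of AP-1 was searched as TGACTCA and that of TEAD as GGAATG. For HNF1 a part of the site, GTTAAT, was taken, and for GATA factors AGATAA. ANXA1 lies at chr9:73151615-73151914 (+), ANXA10 at chr4:168092287-168092586 (+) and the first start of ANXA6 at chr5:151157730-151158029 (-). The genes themselves span chr9:73151757-73170393, chr4:168092515-168187690 and chr5:151100712-151157882 in GENCODE 29 (GRCh38), and no exon of another gene overlaps theirs.
ANXA1: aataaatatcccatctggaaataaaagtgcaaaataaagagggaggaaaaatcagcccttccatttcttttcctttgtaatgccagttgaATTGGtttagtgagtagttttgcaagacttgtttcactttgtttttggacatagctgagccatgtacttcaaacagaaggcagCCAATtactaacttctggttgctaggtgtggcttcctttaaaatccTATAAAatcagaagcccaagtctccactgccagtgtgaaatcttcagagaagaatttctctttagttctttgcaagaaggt
ANXA10: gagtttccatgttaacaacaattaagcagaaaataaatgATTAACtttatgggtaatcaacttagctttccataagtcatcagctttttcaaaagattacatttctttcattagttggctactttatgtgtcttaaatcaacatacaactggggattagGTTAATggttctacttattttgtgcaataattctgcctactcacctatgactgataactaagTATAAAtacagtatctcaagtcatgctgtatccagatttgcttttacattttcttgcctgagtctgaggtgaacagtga
ANXA6: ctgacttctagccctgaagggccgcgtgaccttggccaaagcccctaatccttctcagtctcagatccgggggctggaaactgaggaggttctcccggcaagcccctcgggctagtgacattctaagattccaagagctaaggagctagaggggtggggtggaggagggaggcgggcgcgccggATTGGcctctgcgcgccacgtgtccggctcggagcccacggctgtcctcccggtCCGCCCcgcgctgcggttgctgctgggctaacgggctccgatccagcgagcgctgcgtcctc

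The windows of ANXA1 and ANXA10 hold no CpG at all, with a G and C content of 37.7% and 32.7%, and both have a TATA box, at -31 and at -29. Among all 35116 RefSeq promoters, 3.96% lack CpG and 1.37% lack it and hold TATAAA, and the median promoter has 14 CpG and 58.7% G and C. ANXA1 also holds CCAAT at -160 and -77 (34.6% of all promoters hold that motif). ANXA10 holds the part of the site of HNF1, a hepatocyte factor, at -211 and -91. Of all promoters 6.88% hold it once or more, but their median G and C content (58.7%) is above the 32.7% of this window. The share among windows of like content was not counted. The window of the first ANXA6 start is of the other kind, with 25 CpG, 66.3% G and C, a CCAAT match at -66 and a GC box at -12. The window of a second ANXA6 start, not shown, has 10 CpG, 56.3% G and C and no match. Which start these cells use is not known. ANXA2 (chr15:60397937-60398236, -) has 32 CpG together with a TATA box at -31, a TGACTCA match at -127 (4.95% of all promoters) and overlapping GC boxes at -78, -73 and -68. A match is a description of these letters and says nothing on whether a factor binds.

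Levels set the lines apart before any knockdown. Compared per length, on the deposited FPKM (fragments per kilobase of gene, scaled for depth), ANXA2 was the most abundant annexin in every group. This gene encodes the heavy chain of a complex with S100A10 that binds plasminogen. Its FPKM averaged 389.5 in Huh7 si-circASH2 and 339.7 in Huh7 si-NC, and 865 in HCCLM3 si-circASH2 and 1026 in HCCLM3 si-NC. ANXA5, the phosphatidylserine-binding annexin used to stain dying cells, came next in Huh7, with 230.5 FPKM with si-circASH2 and 229 FPKM with si-NC, and was followed there by ANXA6 with 87.3 and 69.7 FPKM. In Huh7 the order below these was ANXA4, ANXA7 and ANXA11, and the libraries of ANXA4 and ANXA7 overlapped in both groups, the only neighbours in any group to do so. ANXA1 stood above ANXA3 in Huh7 si-circASH2 (19.7 against 14.4 FPKM) and below it in Huh7 si-NC (7.996 against 11.8 FPKM). In HCCLM3 si-circASH2 the order was ANXA2, ANXA1 (426 FPKM), ANXA5 (332 FPKM), ANXA10 (111 FPKM), ANXA4, ANXA11, ANXA7, ANXA3, ANXA13 and ANXA6. In HCCLM3 si-NC it was the same except that ANXA5 (371.5 FPKM) stood above ANXA1 (248.5 FPKM).

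A pair of members was present in 1 line and close to absent in the other. ANXA10, an annexin known from stomach and liver, had 15806 counts over the 3 libraries of HCCLM3 si-circASH2 against 8 in Huh7 si-circASH2. In the control libraries it had 25984 counts in HCCLM3 si-NC against 4 in Huh7 si-NC, a ratio of 6650 (95% counting interval 2600 to 24400). ANXA6, which carries a doubled annexin core and acts in endosomes and in cholesterol traffic, was the reverse. Its counts were 2 in HCCLM3 si-circASH2 against 21657 in Huh7 si-circASH2, and 8 in HCCLM3 si-NC against 17499 in Huh7 si-NC, so that Huh7 si-NC was higher by a ratio of 2140 (1080 to 4950). Counts of 1 were rarer in the table than counts of 2 or 3, so the exact size of the smallest counts is uncertain, and the intervals cover counting error only.

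For the other members the difference between HCCLM3 si-NC and Huh7 si-NC is given as a description, without a test, since it was in view when they were chosen. ANXA1, a glucocorticoid-induced inhibitor of inflammation, was 30.7-fold higher in HCCLM3 si-NC (log2 fold change 4.94 ± 0.08 SE). ANXA2 was 2.99-fold higher there (1.58 ± 0.03). ANXA4 (0.85 ± 0.04), ANXA11 (0.71 ± 0.04) and ANXA5 (0.69 ± 0.04) were higher by less than a log2 unit, each with no overlap between the libraries. ANXA3 (-0.81 ± 0.10) and ANXA7 (-0.12 ± 0.04) were lower in HCCLM3 si-NC, again with no overlap. ANXA13, an annexin of intestinal and kidney epithelium, was low in both lines and its libraries overlapped (0.74 ± 0.29).

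**Figure D1:**
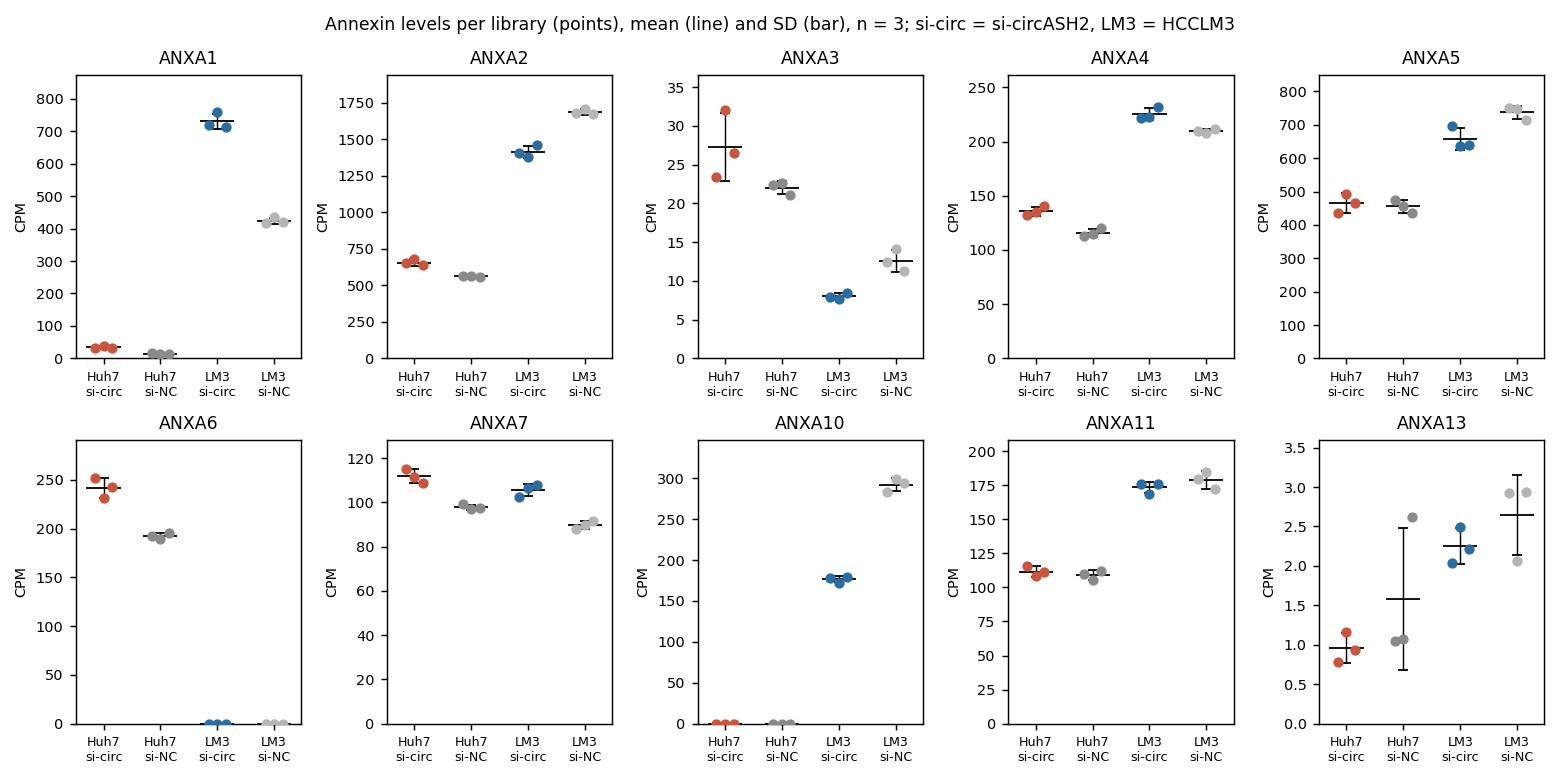
CPM (y axis, linear from 0, its own scale in each panel) of the 10 annexins in each library (points), with the mean (line) and SD (bar) of 3 libraries per group (x axis). ANXA6 is at the floor in HCCLM3 and ANXA10 in Huh7, ANXA1 is higher with si-circASH2 in both lines, and ANXA2 and ANXA3 are higher with si-circASH2 in Huh7 and lower with it in HCCLM3.

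In Huh7, the knockdown of circASH2 came with higher ANXA1 and with smaller rises of ANXA2, ANXA3, ANXA4, ANXA6 and ANXA7. ANXA5 and ANXA11 differed by less than the test could call, and ANXA13 was too scattered. Of the 9 members with enough counts in Huh7, 6 passed as higher, 0 as lower and 3 did not pass (edgeR quasi-likelihood test, Benjamini-Hochberg adjusted over 16946 genes, threshold 0.05), while 16.3% of all genes tested passed as higher and 15.1% as lower. By DESeq2 0 passed as lower too, and at an unadjusted p under 0.05 in edgeR 1 was lower (ANXA13). For 6 of the 9 the si-circASH2 and si-NC libraries had no overlap, as for 42.7% of all genes. The median log2 fold change of the 9 was 0.22, against 0.01 for all genes tested. In bulk libraries a change in the number of cells of a kind and a change of RNA per cell cannot be told apart.

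ANXA1 had 32.1, 39.6 and 31.5 CPM in Huh7 si-circASH2, against 15.2, 13.4 and 12.9 CPM in Huh7 si-NC. The lowest si-circASH2 library was above the highest si-NC library by more than the spread within either group. The gene rose 2.49-fold (log2 fold change 1.32 ± 0.08, edgeR adjusted p = 5.18e-08), starting from a low level for this line.

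ANXA6 had 251, 231 and 243 CPM in Huh7 si-circASH2, against 192, 189 and 196 CPM in Huh7 si-NC. The groups stood apart, and the rise was 0.33 ± 0.05 on the log2 scale (edgeR adjusted p = 7.79e-05), a call that limma on log2(FPKM + 0.1) did not make (adjusted p = 0.0649). ANXA2 had 654, 679 and 636 CPM in Huh7 si-circASH2, against 567, 565 and 560 CPM in Huh7 si-NC. It rose by 0.22 ± 0.03 (edgeR adjusted p = 6.88e-06) with no overlap. Reads of ANXA2 are uncertain to the extent that they were shared with its processed pseudogenes ANXA2P1, ANXA2P2 and ANXA2P3, on chromosomes 4, 9 and 10.

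ANXA4, known from secretory epithelia, had 132, 135 and 140 CPM in Huh7 si-circASH2, against 113, 115 and 120 CPM in Huh7 si-NC. ANXA7, an annexin with a long glycine- and proline-rich tail that promotes membrane fusion, had 115, 112 and 109 CPM in Huh7 si-circASH2, against 99.3, 97.1 and 97.3 CPM in Huh7 si-NC. Both were higher in every si-circASH2 library. ANXA4 rose by 0.23 ± 0.04 (edgeR adjusted p = 4.59e-05) and ANXA7 by 0.19 ± 0.04 (0.000358). An antisense gene, AL512656.1, shares 105 exon bases with ANXA7 on the other strand, and reads of the pair cannot be told apart without strand.

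ANXA3, an annexin described in liver cancer cells with stem-like behaviour, had 23.4, 32.1 and 26.5 CPM in Huh7 si-circASH2, against 22.4, 22.6 and 21.1 CPM in Huh7 si-NC. The si-circASH2 libraries scattered more, and the lowest of them was only just above the highest control. The rise was 0.31 ± 0.09 (edgeR adjusted p = 0.0134). On leaving out si-circASH2 replicate 2 it came to 0.18 (adjusted p = 0.153) and without si-NC replicate 3 it was 0.28 (0.054), so the call rests on single libraries. All 3 fits on FPKM lost it too (adjusted p 0.069 to 0.106).

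ANXA5 had 434, 494 and 466 CPM in Huh7 si-circASH2, against 474, 458 and 436 CPM in Huh7 si-NC. These overlapped throughout, with a log2 fold change of 0.03 and a 95% interval of -0.07 to 0.12 (edgeR adjusted p = 0.71). ANXA11, which links RNA granules to lysosomes in neurons, had 116, 108 and 111 CPM in Huh7 si-circASH2, against 110, 106 and 112 CPM in Huh7 si-NC, and its interval was -0.05 to 0.12 (adjusted p = 0.598). ANXA13 had 0.779, 1.16 and 0.934 CPM in Huh7 si-circASH2, against 1.05, 1.07 and 2.62 CPM in Huh7 si-NC. The single high control, replicate 3, set its log2 fold change of -0.72 ± 0.31 (edgeR adjusted p = 0.0876). Without that library it was -0.14 (adjusted p = 0.787), and without si-NC replicate 1 or 2 it was -0.94 in both cases and passed (0.0322 and 0.037).

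In HCCLM3, the knockdown again came with higher ANXA1, and ANXA4 and ANXA7 rose too. ANXA10, ANXA3, ANXA2 and ANXA5 fell. Of the 9 members with enough counts in HCCLM3, 3 passed as higher, 4 as lower and 2 did not pass, while 15.1% of all genes tested passed as higher and 15.5% as lower. For 7 of the 9 the si-circASH2 and si-NC libraries had no overlap, as for 43.7% of all genes. The median log2 fold change of the 9 was -0.17, against 0 for all genes tested.

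ANXA1 had 719, 758 and 714 CPM in HCCLM3 si-circASH2, against 417, 434 and 420 CPM in HCCLM3 si-NC. All si-circASH2 libraries were far above all controls. It rose 1.72-fold (log2 fold change 0.79 ± 0.06, edgeR adjusted p = 5.09e-07), from an already high level.

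ANXA10 had 178, 173 and 179 CPM in HCCLM3 si-circASH2, against 284, 299 and 295 CPM in HCCLM3 si-NC. The replicates lay close together and the groups far apart. The gene fell 1.65-fold (log2 fold change -0.73 ± 0.06, edgeR adjusted p = 1.44e-07).

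ANXA3 had 7.94, 7.66 and 8.43 CPM in HCCLM3 si-circASH2, against 12.4, 14.1 and 11.3 CPM in HCCLM3 si-NC. No library overlapped, and the gene fell 1.57-fold (log2 fold change -0.65 ± 0.11, edgeR adjusted p = 7.41e-05). ANXA2 had 1409, 1377 and 1458 CPM in HCCLM3 si-circASH2, against 1679, 1709 and 1675 CPM in HCCLM3 si-NC, a fall in every library (log2 fold change -0.25 ± 0.03, edgeR adjusted p = 7.5e-07).

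ANXA5 had 696, 638 and 640 CPM in HCCLM3 si-circASH2, against 749.5, 748 and 716 CPM in HCCLM3 si-NC. Its fall of -0.17 ± 0.04 (edgeR adjusted p = 0.0066) was small, and the 3 fits on FPKM did not call it (adjusted p 0.0585 to 0.0879). ANXA7 had 103, 107 and 108 CPM in HCCLM3 si-circASH2, against 88.1, 89.7 and 91.5 CPM in HCCLM3 si-NC. It rose by 0.23 ± 0.04 (edgeR adjusted p = 4.53e-05), and the groups did not overlap. ANXA4 had 222, 223 and 232 CPM in HCCLM3 si-circASH2, against 209, 208 and 211 CPM in HCCLM3 si-NC. The rise of 0.11 ± 0.04 was slight (edgeR adjusted p = 0.0293). It was lost without HCCLM3 si-NC replicate 1 (adjusted p = 0.0834), 2 (0.0894) or 3 (0.0515), without si-circASH2 replicate 3 (0.138) and with the 3 fits on FPKM (0.0863 to 0.102).

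ANXA11 had 176, 169 and 176 CPM in HCCLM3 si-circASH2, against 179, 185 and 172 CPM in HCCLM3 si-NC, overlapping, with an interval of -0.13 to 0.04 on the log2 scale (edgeR adjusted p = 0.452). ANXA13 had 2.04, 2.49 and 2.22 CPM in HCCLM3 si-circASH2, against 2.93, 2.07 and 2.94 CPM in HCCLM3 si-NC, also overlapping (-0.24 ± 0.28, adjusted p = 0.586). ANXA6 had 0, 0 and 2 counts in HCCLM3 si-circASH2 against 4, 4 and 0 in HCCLM3 si-NC. ANXA10 had 4, 4 and 0 counts in Huh7 si-circASH2 against 0, 4 and 0 in Huh7 si-NC. No knockdown fold is given for ANXA6 in HCCLM3 or ANXA10 in Huh7, since a change at this depth was not detectable.

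**Figure D2:**
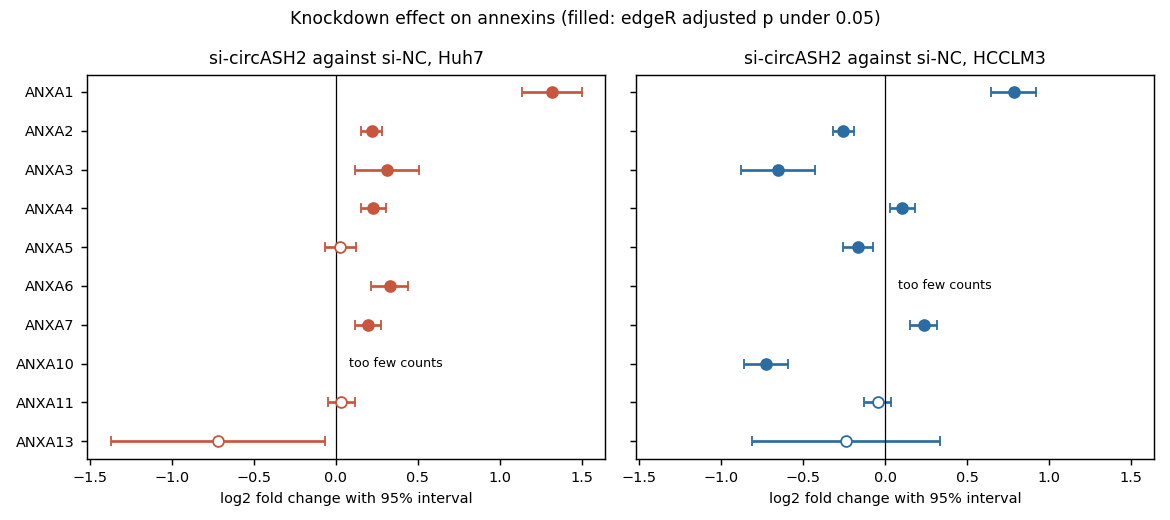
Log2 fold change of si-circASH2 over si-NC (x axis) for each annexin (y axis) in Huh7 (left) and HCCLM3 (right), with 95% intervals, filled where the edgeR adjusted p is under 0.05. ANXA1 lies to the right in both lines (1.32 in Huh7 and 0.79 in HCCLM3), while ANXA2 and ANXA3 lie right of 0 in Huh7 and left of it in HCCLM3.

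Some annexins answered the knockdown differently in the lines. The difference was tested as an interaction, the log2 fold change in HCCLM3 minus that in Huh7, over the 8 members with enough counts in both lines. It passed for 4 of the 8, all of them negative, and not for the other 4. Of all genes tested 20.9% passed in either direction. Their split by sign was not counted, so nothing is read from the shared sign of the 4. None was positive by DESeq2 or at an unadjusted p under 0.05 in edgeR. The median of the 8 was -0.16, against -0.02 for all genes tested.

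ANXA3 had a difference that passed (-0.96 ± 0.14, edgeR adjusted p = 3.35e-05), being higher with the knockdown in Huh7 and lower with it in HCCLM3. ANXA2 also had opposite signs, with a difference of -0.47 ± 0.04 (3.63e-08). ANXA1 moved the same way in both lines and by a smaller fold in HCCLM3 (-0.53 ± 0.11, edgeR adjusted p = 0.00271). In CPM its rise was larger in HCCLM3 (730.5 with si-circASH2 against 424 with si-NC) than in Huh7 (34.4 against 13.8). Whether its fold depends on the starting level was not tested. The difference of ANXA5 was small (-0.19 ± 0.06, edgeR adjusted p = 0.0322), and it was lost with the 3 fits on FPKM (0.176 to 0.231). It was also lost, at adjusted p between 0.0635 and 0.121, on leaving out Huh7 si-NC replicate 2 or 3, Huh7 si-circASH2 replicate 2 or 3, HCCLM3 si-NC replicate 1 or 2, or HCCLM3 si-circASH2 replicate 2 or 3.

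The interaction of ANXA7 was 0.04, with an interval of -0.07 to 0.15 (edgeR adjusted p = 0.674), so that any difference larger than 0.15 in size lies outside the interval. That of ANXA11 was -0.08 (interval -0.19 to 0.04, adjusted p = 0.382) and that of ANXA4 -0.12 (-0.23 to -0.01, adjusted p = 0.108). ANXA13 could not be placed, with an interval of -0.38 to 1.35.

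Summed over the 10 members, annexin expression came to 853 ± 31.7 FPKM in Huh7 si-circASH2 against 757 ± 12.5 FPKM in Huh7 si-NC (SD, n = 3 each). In HCCLM3 it came to 1896 ± 34.0 FPKM with si-circASH2 against 1986 ± 11.3 FPKM with si-NC. The share of ANXA1 in this sum was 22.5% in HCCLM3 si-circASH2 against 12.5% in HCCLM3 si-NC, and 2.30% in Huh7 si-circASH2 against 1.06% in Huh7 si-NC. ANXA2 held 45.6% in HCCLM3 si-circASH2 against 51.6% in HCCLM3 si-NC, and 45.7% in Huh7 si-circASH2 against 44.9% in Huh7 si-NC. ANXA10 made up 5.85% in HCCLM3 si-circASH2 against 9.22% in HCCLM3 si-NC. ANXA6 made up 10.2% in Huh7 si-circASH2 against 9.20% in Huh7 si-NC. ANXA5 held 27.0% in Huh7 si-circASH2 against 30.2% in Huh7 si-NC.

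**Figure D3:**
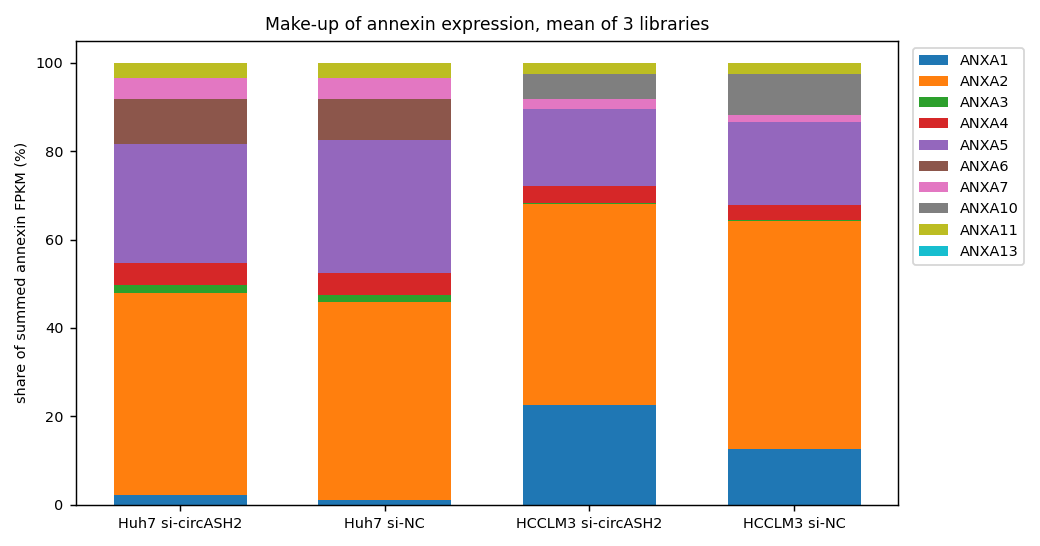
Share of each annexin in the summed FPKM of the 10 members (y axis, percent), as the mean of 3 libraries in each group (x axis). ANXA1 takes 22.5% in HCCLM3 si-circASH2 against 12.5% in HCCLM3 si-NC, ANXA6 has a visible share in the Huh7 groups and ANXA10 in the HCCLM3 groups.

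The FPKM of ANXA11 carried a spread that its counts did not. In HCCLM3 si-NC its counts were 5332, 5286 and 5256 while its FPKM were 47.6, 57.7 and 41.6. The length that counts per FPKM would imply ranged from 3158 to 4744 bases over the 12 libraries for ANXA11, a ratio of 1.502, against ratios of 1.034 to 1.075 for the other members. What made this ratio vary was not tested, and the calls of ANXA11 here come from the counts.

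Of the annexin rows outside the 10, ANXA9 averaged 14.7 ± 0.09 CPM in HCCLM3 si-circASH2 against 10.2 ± 0.31 CPM in HCCLM3 si-NC and rose (log2 fold change 0.53 ± 0.08, edgeR adjusted p = 1.21e-05). In Huh7 it averaged 14.8 ± 0.05 CPM with si-circASH2 against 15.2 ± 0.71 CPM with si-NC (adjusted p = 0.796). ANXA8 and ANXA8L1 are near-identical copies whose reads may have been split, and were below 1 CPM on average in every group. At that level both passed as higher in Huh7 (edgeR adjusted p = 0.0406 for ANXA8 and 0.0105 for ANXA8L1). ANXA2R, named for a proposed receptor of annexin A2, did not pass in either line.

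The deposited genes whose levels over the 4 groups lay closest to a member were found by the distance between the group means of log2 CPM, each centred on its own mean, among 11613 genes. This likeness rests on 4 group means. Closest to ANXA1 were SNCG (distance 0.31), TRIM54 (0.34) and ZG16B (0.41). Closest to ANXA10 were MALL (0.39), DHRS9 (0.45) and CEACAM6 (0.56), and closest to ANXA3 were PAN3 (0.18), VWA7 (0.19) and P3H1 (0.20).

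Each of 3 members held a short sequence in its 3′ untranslated region (UTR) that an earlier account of these data had picked out, TATACCA or TTATACC. The sites are shown with their surroundings, 5′ to 3′, from GENCODE 29 (GRCh38) transcripts, capitals marking the match.
ANXA4: gtcaaagTATACCAaaaccaa
ANXA7: tgaaagtTTATACCctttgac
ANXA11: caccaggTATACCAaggactc

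The longest annotated UTR of each gene was searched. The sites begin at base 606 of 1585 in the UTR of ANXA4, at 886 of 994 in ANXA7 and at 4537 of 4964 in ANXA11. That UTR of ANXA11 is longer than the 3158 to 4744 bases that its counts per FPKM imply. Whether the ANXA11 transcripts of these cells hold the site is therefore not known. Of 13988 tested genes with a UTR, 9.22% hold TATACCA and 8.34% hold TTATACC. The other sequence of that account, TCGGAGA, is held by 2.14% and was found in none of the 10 members. ANXA4 and ANXA7 passed as higher in both lines, the HCCLM3 call of ANXA4 being lost in the alternatives named earlier. ANXA11 passed in neither line. Of the members without either sequence, ANXA1, ANXA2, ANXA3 and ANXA6 passed as higher in Huh7. In HCCLM3 ANXA1 passed as higher and ANXA2, ANXA3, ANXA5 and ANXA10 as lower. The part of these sequences in the annexin results was not tested.

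Partner genes were taken from 5 lists of 37 genes in all, of which 31 were tested. The rule of at least 30 counts in a group was not applied to them. Genes with few counts in a line are thus among those not passed there. In Huh7 13 passed as higher, 3 as lower and 15 did not pass, with a median log2 fold change of 0.14. In HCCLM3 11 passed as higher, 7 as lower and 13 did not pass, with a median of 0.03. The shares over all genes tested are those given above for each line, and the medians of all genes were 0.01 in Huh7 and 0 in HCCLM3.

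S100 proteins are small calcium sensors that bind the N-terminal tails of annexins. Of the 4 tested, 3 rose in Huh7 and 2 in HCCLM3, and none fell, by DESeq2 or at an unadjusted p under 0.05 in edgeR either. S100A11, the partner of ANXA1, averaged 181 ± 4.84 CPM in Huh7 si-circASH2 against 135.5 ± 3.19 CPM in Huh7 si-NC (log2 fold change 0.42 ± 0.05, edgeR adjusted p = 5.75e-07). It rose by 0.21 ± 0.04 in HCCLM3 (0.00119). S100A6 rose by 0.75 ± 0.09 in Huh7 (8.68e-05). In HCCLM3 the rise was 0.27 ± 0.07 (0.0188), and the HCCLM3 call was lost without HCCLM3 si-circASH2 replicate 2 (0.0576) or 3 (0.0696). S100A4 rose by 0.78 ± 0.13 in Huh7 (edgeR adjusted p = 0.00108), and its value in HCCLM3 was 0.03 ± 0.09 (0.875). S100A10, the partner of ANXA2, passed in neither line. It averaged 180 ± 8.92 CPM in Huh7 si-circASH2 against 184 ± 8.28 CPM in Huh7 si-NC, and 1657 ± 15.7 CPM in HCCLM3 si-circASH2 against 1641 ± 71.3 CPM in HCCLM3 si-NC.

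Of the 10 membrane repair genes, 6 rose, 0 fell (0 also by DESeq2 and at an unadjusted p under 0.05 in edgeR) and 4 did not pass in Huh7. Among these 4 is TRIM72, which had 2 counts in Huh7 si-circASH2 and 0 in Huh7 si-NC, too few to call. In HCCLM3 5 rose, 3 fell and 2 did not pass. MYOF, a ferlin of membrane repair, averaged 28.5 ± 2.07 CPM in Huh7 si-circASH2 against 9.81 ± 0.56 CPM in Huh7 si-NC and rose by 1.54 ± 0.06 (edgeR adjusted p = 5.55e-15). In HCCLM3 it averaged 385 ± 11.3 CPM with si-circASH2 against 428 ± 18.3 CPM with si-NC. It fell there by 0.15 on the log2 scale (0.00761), a call lost without HCCLM3 si-NC replicate 2 (0.0662) and with the 3 fits on FPKM (0.0783 to 0.129). CAPN2, a calpain, rose by 0.74 ± 0.04 in Huh7 (1.63e-12) and fell by 0.39 in HCCLM3 (6.07e-09). The interaction passed for both, at -1.69 ± 0.07 for MYOF (edgeR adjusted p = 6.48e-13) and -1.13 ± 0.05 for CAPN2 (1.06e-12). DYSF, the ferlin dysferlin, rose by 0.97 ± 0.09 in Huh7 (2.7e-08) and by 0.69 ± 0.14 in HCCLM3 (0.000391). CAPN1 rose by 0.31 in Huh7 (2.62e-06), with 0.05 in HCCLM3 (0.332).

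Plasminogen genes, whose products meet at the complex of annexin A2, gave 0 calls among 5 tested in Huh7 by edgeR and by DESeq2, and 1 (PLAU, lower) at an unadjusted p under 0.05 in edgeR. In HCCLM3 1 rose, 2 fell and 2 did not pass. Among those not passed there is PLG, with 13 counts in HCCLM3 si-circASH2 and 9 in HCCLM3 si-NC, too few to call. PLAT, tissue plasminogen activator, averaged 12.9 ± 0.52 CPM in HCCLM3 si-circASH2 against 34.4 ± 1.17 CPM in HCCLM3 si-NC (log2 fold change -1.41 ± 0.10, edgeR adjusted p = 1.02e-10). PLAUR, the urokinase receptor, averaged 19.7 ± 0.83 CPM with si-circASH2 against 40.9 ± 3.83 CPM with si-NC (-1.06 ± 0.08, adjusted p = 3.21e-10). PLAU, urokinase itself, averaged 59.6 ± 2.91 CPM in HCCLM3 si-circASH2 against 30.5 ± 1.04 CPM in HCCLM3 si-NC (0.97 ± 0.07, adjusted p = 7.21e-10). The interaction passed for all 3, at -1.84 ± 0.25 for PLAT (6.11e-06), -0.82 ± 0.16 for PLAUR (0.000672) and 1.29 ± 0.16 for PLAU (2.04e-06). In Huh7 the values of PLAT (0.43, adjusted p = 0.156) and PLAU (-0.32, 0.086) did not pass with all libraries. Without Huh7 si-NC replicate 3 they were 0.80 (0.0136) and -0.42 (0.0381), and PLAU also passed without si-circASH2 replicate 2 (0.017). PLAUR in Huh7 was -0.23 (0.232) and passed with the 3 fits on FPKM (0.00505 to 0.0307).

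Partners of ANXA7 and ANXA11 in membrane budding (penta-EF-hand proteins and the ESCRT machinery) gave 3 rises, 1 fall and 4 not passed out of 8 in each line. PDCD6, which binds the tails of both, rose in Huh7 by 0.20 (edgeR adjusted p = 0.0117) and in HCCLM3 by 0.29 (0.00017). The Huh7 call was lost on leaving out si-circASH2 replicate 2 (0.0813) or si-NC replicate 3 (0.0796). CHMP4B, an ESCRT filament subunit, rose by 0.14 in Huh7 (0.0147) and by 0.12 in HCCLM3 (0.026). In Huh7 its call was lost on leaving out si-circASH2 replicate 2 (0.0687) or si-NC replicate 1 (0.0847), and in HCCLM3 on leaving out si-circASH2 replicate 2 (0.162) or si-NC replicate 1 (0.0942) or 2 (0.0703). With limma on log2(FPKM + 1) over all genes above 0 it was lost in both lines (0.0587 in Huh7 and 0.0514 in HCCLM3), and with limma on log2(FPKM + 0.1) in Huh7 (0.0506). GCA, a penta-EF-hand protein of granulocytes, rose by 0.37 in Huh7 (0.00959), a call lost without si-circASH2 replicate 3 (0.0536) and with the 3 fits on FPKM (0.0655 to 0.166). Its HCCLM3 value of 0.31 (0.144) passed on leaving out si-circASH2 replicate 3 (0.0481) or si-NC replicate 1 (0.0219). VPS4B, the ESCRT ATPase, rose by 0.18 in HCCLM3 (0.0122), lost on leaving out si-circASH2 replicate 1 (0.0597) or si-NC replicate 2 (0.0671), with limma on log2(FPKM + 0.1) (0.0539) and with limma on log2(FPKM + 1) over all genes above 0 (0.0633). Its Huh7 value of 0.14 (0.0603) passed on leaving out si-circASH2 replicate 1 (0.0227) or si-NC replicate 1 (0.0339), and with upper quartile factors (0.0312).

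Of the annexin A1 signalling genes, the formyl peptide receptors FPR1, FPR2 and FPR3 were too low to test. Among the other 4, 1 rose and 2 fell in Huh7, and 1 fell in HCCLM3. PLA2G4A, the cytosolic phospholipase that annexin A1 is known to inhibit, rose by 0.48 ± 0.11 in Huh7 (edgeR adjusted p = 0.00123). In HCCLM3 it fell by 0.24 on the log2 scale (0.0407), a call lost on leaving out any 1 of the 6 HCCLM3 libraries (0.0628 to 0.151), with no filter on low counts (0.0504) and with limma on log2(FPKM + 0.1) (0.0573). The interaction of PLA2G4A was -0.72 ± 0.14 (edgeR adjusted p = 0.000503). MAPK3, a kinase of growth factor signalling, fell by 0.28 on the log2 scale in Huh7 (0.000823) and was at -0.11 in HCCLM3 (0.183). EGFR passed in neither line (0.03 in Huh7, adjusted p = 0.608, and -0.06 in HCCLM3, 0.234).

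**Figure D4:**
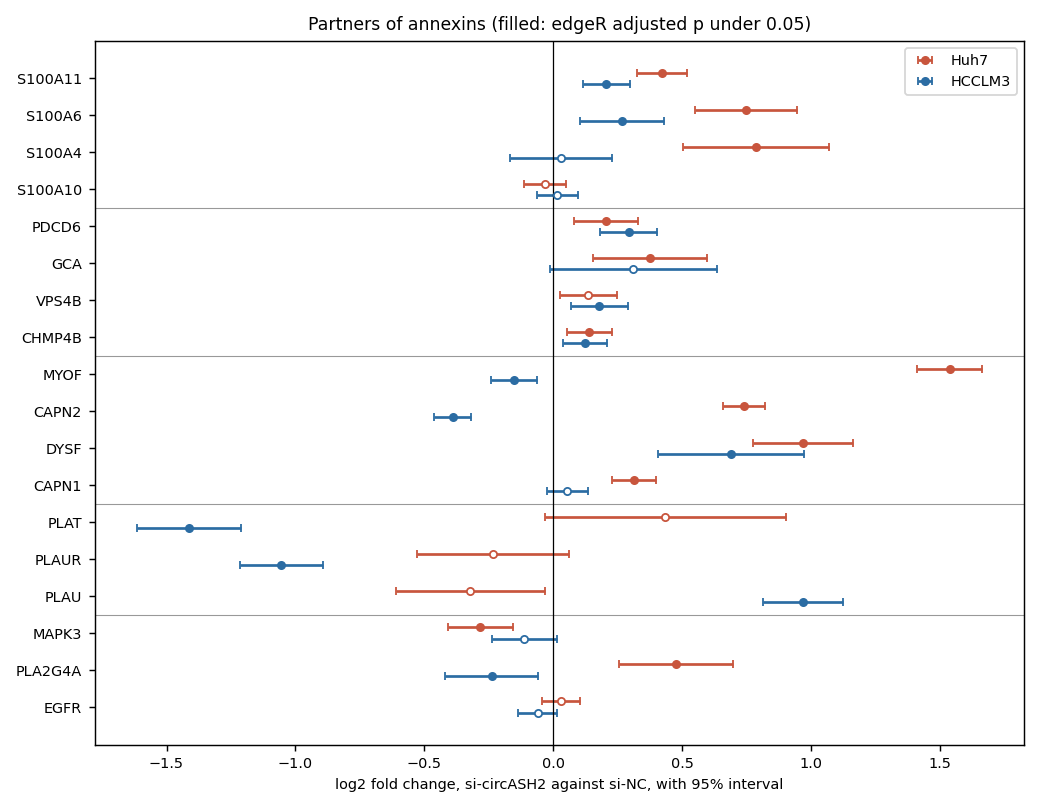
Log2 fold change of si-circASH2 over si-NC (x axis) for the named partner genes (y axis), grouped by list, in Huh7 (red) and HCCLM3 (blue), with 95% intervals, filled where the edgeR adjusted p is under 0.05. MYOF and CAPN2 lie right of 0 in Huh7 and left of it in HCCLM3, and PLAT and PLAUR lie left of -1 in HCCLM3 alone.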

How the data were processed

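Libraries were built from total RNA with a SMARTer mRNA kit, per the labels' protocols. The authors deposited counts per gene and FPKM of the same genes, scaled for length and depth. No source used here gives the aligner, counting tool, annotation or strand, and the submitters' processing notes list human and mouse genome builds without a role. The 12 libraries were grouped by their labels. Pairs of replicates differed by more than sampling noise, and the replicate numbers did not pair the samples.

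Counts of all genes were fitted with edgeR 4.0.16 in R 4.3.3: filterByExpr over the 4 groups (minimum count 10), which kept 16946 of 23583 rows and left out 6637, TMM scaling, 1 coefficient per group, and the robust quasi-likelihood method (common biological variation 5.65%, residual degrees of freedom 8). Benjamini-Hochberg adjustment ran over all genes (threshold 0.05). CPM use the TMM factors. Standard errors were taken from the log2 fold change and its F statistic. All 10 annexins were in the fit, and a knockdown value is given where a group held at least 30 counts. The code was checked on simulated data.

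The annexins, the partner and marker lists, the tests and the alternatives were chosen with earlier results of these data known. The genes named are the 10 members, the other ANXA rows, up to 4 of each partner list with the smallest p over both knockdowns, and the 3 genes closest in level to ANXA1, ANXA3 and ANXA10. TRIM72 and PLG are named as well, for their low counts in a line. Genes went into the search for closest levels if they had at least 5 CPM in the highest group, with a prior count of 2. Alternatives were DESeq2 1.42.0, upper quartile factors, no filter, each line alone, a replicate block, limma 3.58.1 on the deposited FPKM and leaving out each library. Loci, untranslated regions and pseudogenes are from GENCODE 29 (GRCh38), which may not be the authors' annotation, and promoters from RefSeq (GRCh38.p14), where 9 of the 10 members had a window and 4 are shown or described; sequence of ANXA13 and the values of some partner genes that the rule covers are not reported here.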

Additional observations from a re-analysis of the deposited data

Results flagged for a closer look

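The effect of the knockdown differed between HCCLM3 and Huh7, by the interaction test, for 4 of the 8 annexins with enough counts in both lines. Of all genes tested 20.9% passed that test, and nothing about the family is read from the count. The difference in log2 fold change, HCCLM3 minus Huh7, was -0.53 for ANXA1, -0.47 for ANXA2, -0.96 for ANXA3 and -0.19 for ANXA5. ANXA1 rose in both lines (0.79 in HCCLM3 and 1.32 in Huh7). ANXA2 and ANXA3 fell in HCCLM3 (-0.25 and -0.65) and rose in Huh7 (0.22 and 0.31). ANXA5 fell in HCCLM3 (-0.17) and did not pass in Huh7 (0.03). Its difference between the lines was lost in the 3 fits on FPKM (adjusted p 0.176 to 0.231) and on leaving out any 1 of 8 libraries (0.0635 to 0.121). The summed fibroblast markers were higher with si-circASH2 in both lines, mostly through LUM in HCCLM3 and COL1A2 in Huh7. Of the 7, 1 (LUM) passed as higher in HCCLM3 and 4, LUM among them, in Huh7. Over all genes tested 15.1% passed as higher in HCCLM3 and 16.3% in Huh7. The part of these markers in the differences between the lines was not tested.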

How the results depend on the processing

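No annexin gained or lost a call with DESeq2, upper quartile factors, no filter or each line alone. The replicate numbers did not pair the samples (correlations of same-numbered libraries -0.03 to 0.04). With the replicate block 6 annexins were called in Huh7, 7 in HCCLM3 and 4 in the interaction, as without it, and 16 and 19 partners were called against 16 and 18 without it. Leaving out each library in turn gave 5 to 7 annexins called in Huh7, 6 to 7 in HCCLM3, 3 to 4 in the interaction, and 14 to 18 partners in Huh7 and 12 to 20 in HCCLM3. With limma on log2(FPKM + 0.1) 9 partners were called in HCCLM3, against 18, and the cause was not tested. ANXA5 in Huh7, which was not called, changed sign to -0.003152 without Huh7 si-NC replicate 3 (adjusted p = 1) and to -0.01943 without Huh7 si-circASH2 replicate 2 (0.82). The interaction of ANXA13, also not called, was -0.09329 without Huh7 si-NC replicate 3 (0.954), and ranged from that to 0.7081 over the fits without a library, as ANXA5 in Huh7 ranged from -0.01943 to 0.07492. ANXA1 kept its call in each fit without a library, at 1.20 to 1.39 in Huh7 and 0.76 to 0.80 in HCCLM3. Depth limits ANXA13, ANXA6 in HCCLM3 and ANXA10 in Huh7.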
